A study of Homo sapiens with 6 samples.

Results

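The genes for the 7SL, 7SK, RNase MRP and RNase P RNAs were examined in cells labelled as endoderm of the third pharyngeal pouch (3PPE). These cells were derived from human embryonic stem cells and had received a control siRNA or siRNA against HOXA3. The members were the rows of the count table whose gene identifier belongs in GENCODE release 29 to RN7SL1, RN7SL2, RN7SK, RMRP or RPPH1, which gave 6 rows for 5 symbols among 58735 genes, since RMRP is annotated under 2 identifiers. The symbols were selected on their counts in these same libraries, read as carry-over of RNA without a poly(A) tail, so the comparison between groups for them is a description without a test.

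H9 (WA09) cells, a line of human embryonic stem cells, were grown on a feeder layer of MEF and turned into endoderm with Activin A, WNT3A and the ROCK inhibitor Y-27632, followed by Activin A with B27. At day 4 they were reseeded on Matrigel and exposed to RA, SB431542, BMP4, IWP2 (IWP2 or IWR1 in the study's methods) and B27. At day 7 they received siRNA with Lipofectamine 3000, after which the medium was replaced with opti-MEM. The NC group (3 libraries, genotype label WT) received a negative control siRNA, the Si-HOXA3 group (3 libraries, labelled as HOXA3 knockdown) received siRNA against HOXA3, and both were harvested at day 9. All libraries therefore derive from a single cell line and share the differentiation and the transfection, and p-values measure the spread between these samples, which the study describes as biological repeats. Si-HOXA3 replicate 2 stood apart over all genes, with a chi-square per gene of 28.2 to 34.1 against each other library, compared with 4.83 to 11.7 among the rest.

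All 4 RNAs are transcribed by RNA polymerase III and end without a poly(A) tail. 7SL RNA is the scaffold of the signal recognition particle (SRP), which brings ribosomes making secreted and membrane proteins to the endoplasmic reticulum. 7SK RNA holds the elongation kinase P-TEFb in an inactive complex, RPPH1 is the catalytic RNA of RNase P, which trims the 5′ ends of tRNA precursors, and RMRP is the RNA of RNase MRP, which cuts precursor ribosomal RNA. These RNAs belong to the basic machinery of most cells and are not markers of the pharyngeal pouch.

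RN7SL2 was the member that carried counts, and it was compared with its full-length copies RN7SL1 and RN7SL3 because the 3 transcripts, as annotated in GENCODE release 29 on GRCh38, are almost the same sequence. RN7SL1 differed from RN7SL2 at 5 positions (98.3% identity) and RN7SL3 at 12 positions (96.0%), and RN7SL1 and RN7SL3 were 97.7% identical. Of the 251 stretches of 50 bases in RN7SL2, 217 (86.5%) also occurred in an exon of at least 1 of 11 other annotated genes. RN7SL1 held 158 of them, the pseudogenes RN7SL4P and RN7SL5P held 143 and 117, and RN7SL3 held 76. The 34 stretches found in RN7SL2 alone formed 2 runs, one of 8 stretches ending at base 59 and one of 26 stretches from base 226 to the 3′ end at base 300. How reads that match several of these genes were counted is not given in the sources used here, so the counts of RN7SL1, RN7SL2, RN7SL3 and the pseudogenes cannot be told apart with certainty.

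RN7SL1, RN7SK, RMRP and RPPH1 had no count in any of the 6 libraries. RN7SL1 (ENSG00000276168), a functional copy of 7SL, lies on the plus strand at chr14:49586580-49586878 and is a single exon of 299 bases inside an intron of RPS29, which runs on the opposite strand. RN7SK (ENSG00000283293) lies on the plus strand at chr6:52995621-52995948 and has 328 bases. RMRP is annotated on the minus strand as a long noncoding gene (ENSG00000269900, chr9:35657751-35658018, 268 bases) and again as a ribozyme (ENSG00000277027, chr9:35657754-35658017, 264 bases). RPPH1 (ENSG00000277209) lies on the minus strand at chr14:20343075-20343407 and has 333 bases. When no read is seen, up to 3 may have been missed by chance, which equals 0.197 to 0.211 CPM (counts scaled to the normalized library size) depending on the library, or at most 0.707 CPM per kb for RN7SL1, 0.644 for RN7SK, 0.788 and 0.800 for the RMRP entries and 0.635 for RPPH1. These limits cover counting error only and hold for the reads assigned to these rows. No fold change is given for these rows, since both groups were at 0.

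Each of the rows at 0 shared its exon with a second annotated gene on the same strand, and each of those second genes was at 0 in all 6 libraries too. The exon of RN7SL1 was covered over 100% of its bases by AL139099.4, that of RN7SK by RF00100, and that of RPPH1 by AL355075.4, which spans 638 bases. The shorter RMRP entry was covered over 100% by the longer one, which in turn was covered over 98.5% by the shorter one. RMRP is shown because it illustrates how small the remainder is, with capitals for the 4 bases of the longer entry that lie outside the shorter one. The transcript is that of GENCODE release 29, written 5′ to 3′.
RMRP: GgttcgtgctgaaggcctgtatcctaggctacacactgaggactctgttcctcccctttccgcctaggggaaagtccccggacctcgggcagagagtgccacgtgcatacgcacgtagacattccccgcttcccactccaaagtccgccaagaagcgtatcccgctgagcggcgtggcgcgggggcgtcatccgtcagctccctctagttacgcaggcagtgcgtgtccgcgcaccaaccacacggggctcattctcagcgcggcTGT
RN7SL2 (ENSG00000274012), on the minus strand at chr14:49862550-49862849 with 300 bases, was the member whose exon overlapped no exon of another gene. It lies in an intron of AL627171.2, a long noncoding gene on the same strand with 9, 4 and 2 counts in NC against 3, 3 and 4 in Si-HOXA3. The map of members and overlapping genes shows these positions.

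**Figure D1:**
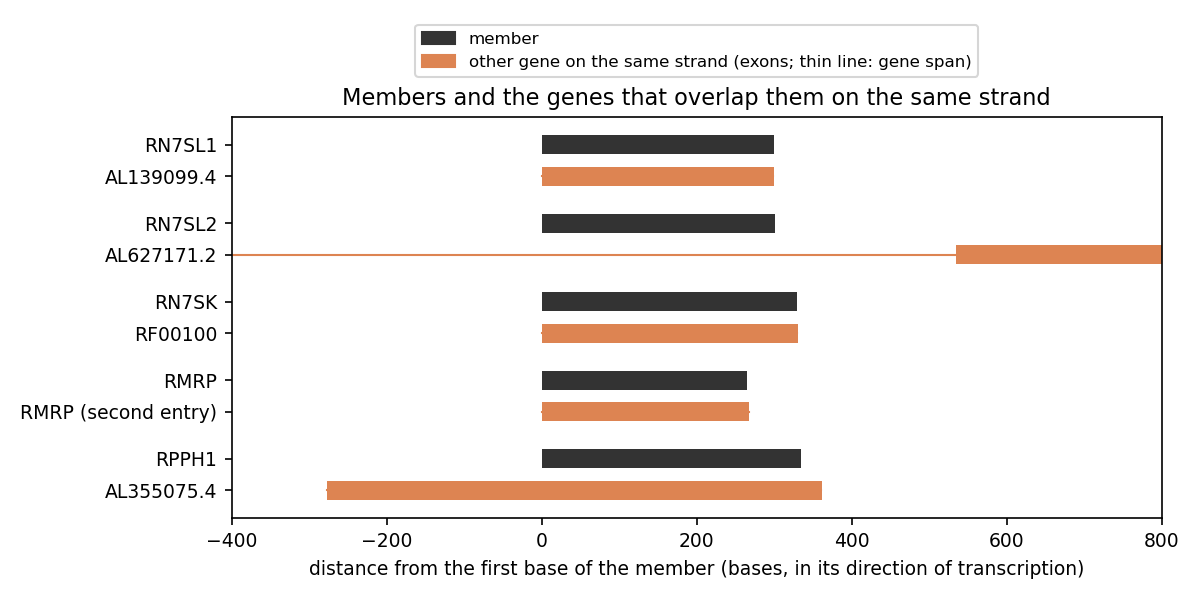
The horizontal axis gives the distance in bases from the first base of each member in its direction of transcription. Dark bars are the members (for RMRP, the entry of 264 bases) and orange bars are exons of the overlapping gene on the same strand, with a thin line for the rest of that gene. RN7SL1, RN7SK, RMRP and RPPH1 lie wholly within an exon of the second gene, whereas RN7SL2 lies between exons of AL627171.2.

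Across the whole table, genes without a count were most frequent where the exon overlap was complete or nearly so. Of 1894 genes whose exons were covered over 100% of their bases by exons of other genes, 1840 (97.1%) had no count in any library, and the highest total over all 6 libraries among them was 13 counts. Of 41758 genes with no exon overlap, 46.9% had no count. The share did not rise steadily with overlap. It was 14.6% for an overlap above 0 and under 50%, 38.2% from 50% to under 99% and 90.2% from 99% to under 100%. The longer RMRP entry, at 98.5%, belongs to the group with 38.2%. Among genes of 250 to 350 bases, which is the size of the members, 111 of 112 fully covered genes (99.1%) were without a count, compared with 2406 of 3612 genes without overlap (66.6%). For 710 genes that were fully covered by exons of the opposite strand and not overlapped on their own strand, the share was 99.7%, with a highest total of 4 counts. A count of 0 for RN7SL1, RN7SK, RMRP or RPPH1 in this table therefore does not show that the RNA was absent from the libraries, and their levels were not measurable here.

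**Figure D2:**
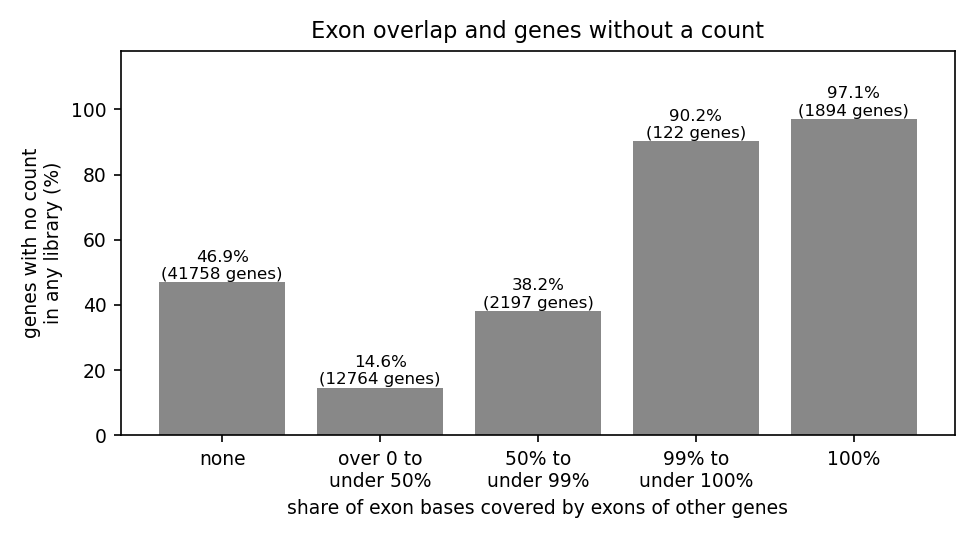
Bars give the percentage of genes with no count in any of the 6 libraries (vertical axis) for genes grouped by the share of their exon bases that exons of other genes on either strand cover (horizontal axis), with the percentage and the number of genes above each bar. The share is 46.9% for genes without overlap, where RN7SL2 belongs. It is 97.1% for genes covered over 100%, where RN7SL1, RN7SK, RPPH1 and the shorter RMRP entry belong. The longer RMRP entry falls in the bin from 50% to under 99%, where the share is 38.2%.

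Reads on RN7SL2 numbered 161, 30 and 30 in the 3 NC libraries (replicates 1, 2 and 3) against 382, 190 and 138 for the Si-HOXA3 libraries. The exact 95% Poisson intervals of these counts were 137 to 188 in NC replicate 1 and 20.2 to 42.8 in NC replicates 2 and 3, and 345 to 422, 164 to 219 and 116 to 163 in Si-HOXA3, and they cover counting error only. The normalized expression was 10.8, 1.98 and 1.97 CPM in NC and 26.3, 12.6 and 9.72 CPM in Si-HOXA3. The groups overlapped, because NC replicate 1 was higher than Si-HOXA3 replicate 3, while NC replicates 2 and 3 were lower than the other 4 libraries.

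The mean of RN7SL2 was 4.92 ± 5.10 CPM in NC against 16.2 ± 8.83 CPM in Si-HOXA3 (SD, n = 3 per group), a ratio of 3.29, and the log2 fold change of the edgeR fit was 1.72 (SE 0.57). The highest library was 5.50 times the lowest within NC and 2.70 times within Si-HOXA3. Without NC replicate 1 the log2 fold change was 3.03, and without Si-HOXA3 replicate 1, the highest library, it was 1.19. Without Si-HOXA3 replicate 2, which stood apart over all genes, it was 1.87. RN7SL2 was the only one of the 6 rows with enough counts to be tested, and 0 of 1 passed an adjusted p of 0.05, where 0.00604% of the 16561 genes tested did (1 gene, BOLA2B). Because the symbols were chosen with these values known, nothing is read from that count. In bulk libraries, shares of cell types, RNA per cell and carry-over of RNA without a poly(A) tail into the library cannot be told apart.

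**Figure D3:**
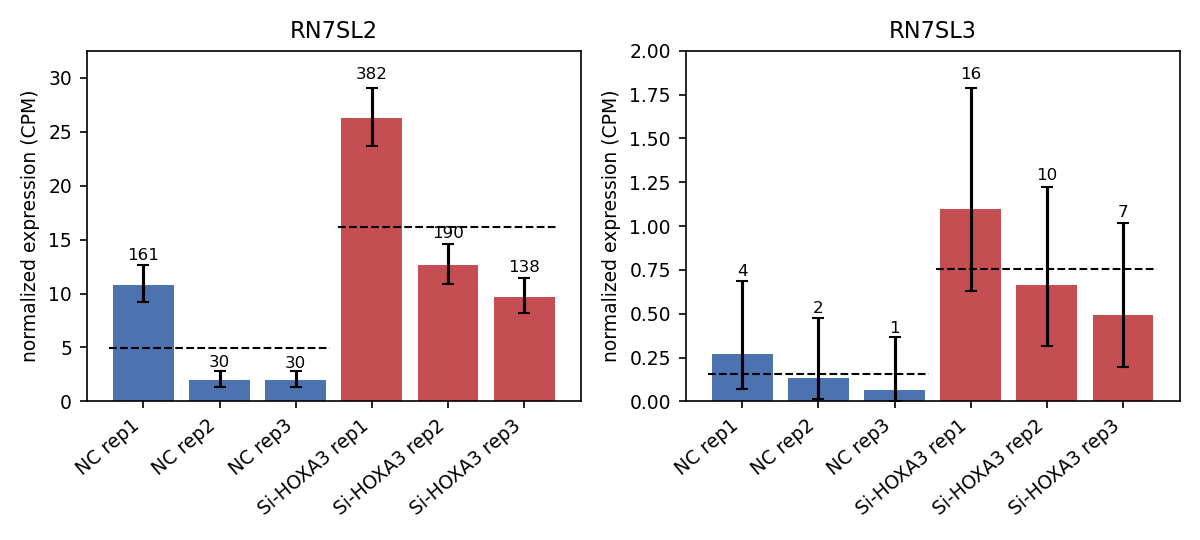
Bars give the normalized expression in CPM (vertical axis) of RN7SL2 (left) and RN7SL3 (right) in each library (horizontal axis), with the raw count above each bar. Error bars are exact 95% Poisson intervals and dashed lines are group means. For RN7SL2, NC replicate 1 with 161 counts stands above Si-HOXA3 replicate 3 with 138 counts, whereas for RN7SL3 the 3 Si-HOXA3 libraries, at 7 to 16 counts, stand above the NC libraries, at 1 to 4 counts.

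Set per length beside the other genes, RN7SL2 was at 36.0, 6.61 and 6.55 CPM per kb in NC and 87.5, 42.1 and 32.4 CPM per kb in Si-HOXA3. This placed it above 94.1%, 60.4% and 60.2% of the genes tested in the NC libraries and above 98.1%, 94.5% and 93.3% in the Si-HOXA3 libraries. RN7SL2 took between 0.000197% and 0.00261% of all counts of a library. Among the 5188 genes annotated as misc_RNA, snRNA, snoRNA, scaRNA, rRNA or ribozyme, RN7SL2 had the highest total over the 6 libraries, 931 counts. It was not the highest in NC replicates 2 and 3, where the snoRNA SNORA73B had 33 and 35 counts against 30 and 30. RN7SL2 made up 4.77%, 1.22% and 1.13% of the counts on those genes in NC and 11.1%, 7.51% and 4.31% in Si-HOXA3.

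RN7SL3 (ENSG00000278771), which lies on the minus strand at chr14:49853616-49853914 and overlaps no exon, was counted 4, 2 and 1 times in NC against 16, 10 and 7 times in Si-HOXA3. Its mean was 0.155 ± 0.104 CPM in NC against 0.753 ± 0.313 CPM in Si-HOXA3 (SD, n = 3 per group), and the groups did not overlap, although it had too few counts to be tested. The exact 95% Poisson intervals of NC replicate 1 and Si-HOXA3 replicate 3 overlapped, at 1.09 to 10.2 and 2.81 to 14.4 counts. Among the genes tested, a set without RN7SL3, 6.41% did not overlap with Si-HOXA3 higher and 6.88% with Si-HOXA3 lower. The libraries stood in the same order in RN7SL3 as in RN7SL2 except for NC replicate 1, which fell below all Si-HOXA3 libraries. RN7SL2 had 15 to 40.2 times the counts of RN7SL3 in NC and 19.0 to 23.9 times in Si-HOXA3.

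RN7SL pseudogenes, scattered copies derived from 7SL, differed between the groups by less than the spread between libraries. Of 677 such genes, 233 had a count, and their summed expression was 22.2 ± 6.95 CPM in NC against 23.5 ± 6.02 CPM in Si-HOXA3 (SD, n = 3 per group), a ratio of 1.06. The 670 pseudogenes that share no 50-base stretch with RN7SL2 made up most of that sum, at 20.7 and 22.1 CPM. The 7 pseudogenes that do share one summed to 3.42, 0.463 and 0.655 CPM in NC and 1.79, 1.40 and 1.20 CPM in Si-HOXA3. Here NC replicate 1 was the highest library and NC replicates 2 and 3 the lowest. The sharing pseudogene with the most counts was RN7SL4P, with 17, 1 and 8 counts in NC against 19, 10 and 10 in Si-HOXA3, and the next was RN7SL5P, with 31, 1 and 2 in NC and 7, 6 and 7 in Si-HOXA3.

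RN7SL1, RN7SL2 and RN7SL3 taken as 1 feature were at 5.07 ± 5.20 CPM in NC against 17.0 ± 9.14 CPM in Si-HOXA3 (SD, n = 3 per group), a ratio of 3.34. With all 11 genes that share a stretch added to RN7SL2, the values were 6.59 ± 6.85 against 18.4 ± 9.44 CPM (SD, n = 3 per group), a ratio of 2.80. Both sums were higher on average in Si-HOXA3, with the same overlap of NC replicate 1 and Si-HOXA3 replicate 3.

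RN7SK pseudogenes gave the nearest reading of 7SK-like sequence in the table. Of 293 such genes, 77 had a count, and they summed to 12.0, 8.53 and 8.78 CPM in NC and 12.1, 6.58 and 11.6 CPM in Si-HOXA3, a ratio of means of 1.03. All 279 stretches of 50 bases in RN7SK occurred in RF00100 and between 1 and 96 of them in 14 further genes. The sharing pseudogene with the most counts was RN7SKP80, with 79 of the stretches and 30, 8 and 14 counts in NC against 17, 5 and 13 in Si-HOXA3. These values describe the pseudogenes and give no level of 7SK. For RMRP and RPPH1, no gene other than the overlapping one shared a stretch.

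Other structured RNAs without a poly(A) tail were read from lists of named genes. Of 23 spliceosomal and histone snRNAs, which build the spliceosome or process histone mRNA, 16 were at 0 in all libraries, 4 of which were fully covered by other exons. The one with the most counts was RNU6-8, a U6 copy, with 19, at 1, 0 and 2 in NC against 8, 7 and 1 in Si-HOXA3. Of 7 Y and vault RNAs, 6 were at 0. VTRNA1-1, a vault RNA, had 10 counts, at 0, 1 and 0 in NC against 1, 4 and 4 in Si-HOXA3. The list sums were 0.264 to 0.537 CPM in NC against 0.665 to 0.894 CPM in Si-HOXA3 for the snRNAs. For the Y and vault RNAs the sum was that of VTRNA1-1 alone, at 0 to 0.0661 against 0.0688 to 0.282 CPM. The highest NC library and the lowest Si-HOXA3 library had 1 count each there. Both lists had too few counts to be tested. Of 21 long snoRNA and scaRNA rows, which guide the modification or cleavage of ribosomal and spliceosomal RNA, 10 were at 0, including all 7 that were fully covered. The highest of them was SNORA73B with 165 counts, and its expression was 2.16 ± 0.140 CPM in NC against 1.52 ± 0.484 CPM in Si-HOXA3 (SD, n = 3 per group), with an edgeR adjusted p of 0.836. The telomerase RNA TERC had 1 count and the neuronal Pol III transcript BCYRN1 had 11 counts over all libraries. In total counts RN7SL2, at 931, stood far above the genes of these lists. In NC replicates 2 and 3, however, SNORA73B had 33 and 35 counts against 30 and 30 for RN7SL2.

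Summed over whole classes, genes annotated as snRNA were at 56.0 ± 6.03 CPM in NC against 65.1 ± 12.3 CPM in Si-HOXA3 (SD, n = 3 per group). Genes annotated as snoRNA were at 53.6 ± 6.35 against 50.5 ± 7.11 CPM (SD, n = 3 per group), and misc_RNA genes other than RN7SL2 at 70.1 ± 15.95 against 75.6 ± 16.2 CPM (SD, n = 3 per group). The ratios of Si-HOXA3 to NC were between 0.941 and 1.16 for these classes, beside 3.29 for RN7SL2, and were not tested. These sums include pseudogenes. The gene with the most counts in the snRNA class was the pseudogene RNU6-1016P, with 204, so the sums give no level of the functional RNAs. Mitochondrial ribosomal RNA, which carries short tails, was at 5425 ± 655 CPM in NC against 6197 ± 638 CPM in Si-HOXA3 (SD, n = 3 per group). NC replicate 1 was the highest NC library in each of these sums, as it was in RN7SL2.

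MALAT1 and NEAT1, long nuclear RNAs with forms whose 3′ ends are cut by RNase P, were abundant. The counts per gene do not separate such forms from others. MALAT1 was at 960, 724 and 742 CPM in NC and 1221, 939 and 924 CPM in Si-HOXA3, so that NC replicate 1 lay above 2 of the Si-HOXA3 libraries. Its log2 fold change was 0.35 (SE 0.15), with an unadjusted p of 0.0429 and an adjusted p of 0.762 in edgeR's quasi-likelihood test. NEAT1 was at 136, 75.3 and 75.7 CPM in NC and 134, 90.3 and 125 CPM in Si-HOXA3, with a log2 fold change of 0.28 (SE 0.22) and an adjusted p of 0.854. In RN7SL2, MALAT1 and NEAT1 alike, NC replicate 1 was well above NC replicates 2 and 3, and the part of that library in the values was not tested.

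**Figure D4:**
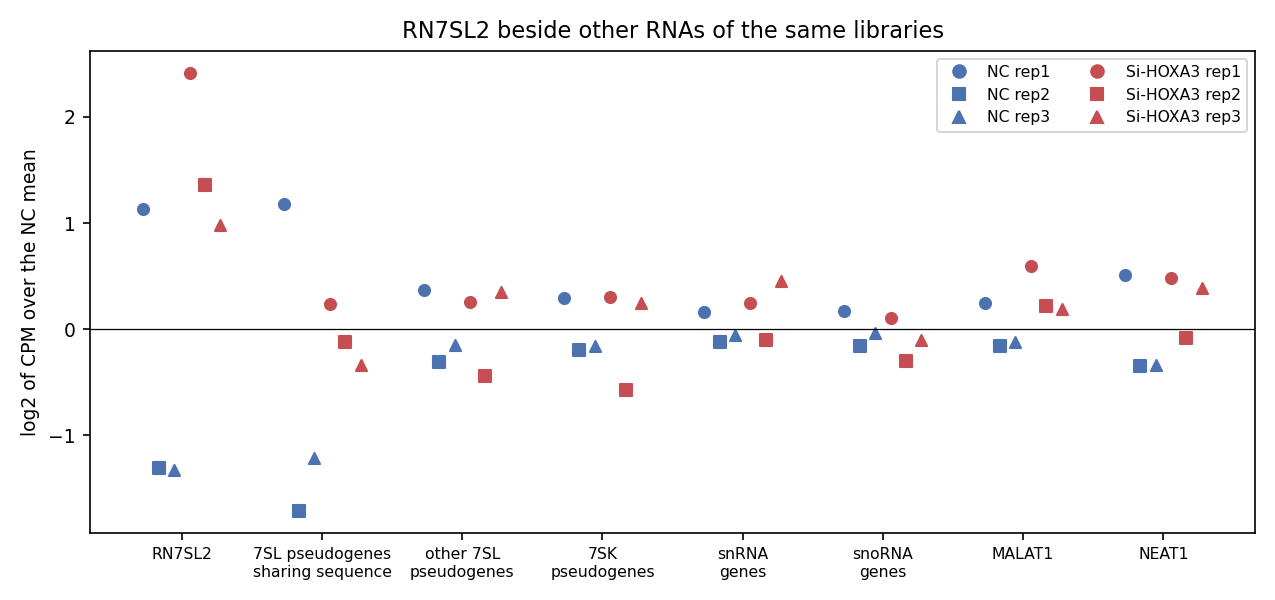
Each point is a library, and the vertical axis gives the log2 of its CPM over the mean of the NC libraries for RN7SL2, for summed classes of RNA and for MALAT1 and NEAT1 (horizontal axis). Blue is NC, red is Si-HOXA3, and circles, squares and triangles are replicates 1, 2 and 3. The spread of RN7SL2, from 1.97 to 26.3 CPM, exceeds that of the other RNAs shown, and NC replicate 1 is the highest NC library in each.

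The proteins that bind these RNAs or take part in their transcription were measured through their mRNAs, and none of the 59 partner genes, all of which were tested, passed an adjusted p of 0.05 in edgeR's quasi-likelihood test. At an unadjusted p under 0.05, 0 of them were higher and 1 was lower in Si-HOXA3, beside 3.79% of all genes tested that were higher and 2.57% that were lower. Their median log2 fold change was 0.04, compared with 0.00 over all genes tested, with 33 above 0 and 26 below. In 4 of them the groups did not overlap with Si-HOXA3 higher and in 6 with Si-HOXA3 lower, beside 6.41% and 6.88% of all genes tested, so these counts are near the background.

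Among the 8 proteins of the SRP and its receptor, which work with 7SL, log2 fold changes lay between -0.08 and 0.11. The highest level per length was that of SRP9, which with SRP14 binds the Alu end of 7SL, at 343 ± 34.8 CPM in NC against 365 ± 87.2 CPM in Si-HOXA3 (SD, n = 3 per group). Its log2 fold change was 0.09 (SE 0.16), beside 1.72 for RN7SL2. Among the 7 proteins of the 7SK complex and P-TEFb, the log2 fold changes lay between -0.18 and 0.77 with a median of 0.14. The highest per length was CDK9, the kinase of P-TEFb, at 46.0 ± 5.86 CPM in NC against 50.8 ± 5.39 CPM in Si-HOXA3 (SD, n = 3 per group), with an adjusted p of 0.867.

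Among the 11 proteins of RNase P and RNase MRP, which share most of their subunits, the log2 fold changes lay between -0.37 and 0.47 with a median of 0.04. POP7, the highest per length, was at 14.4 ± 1.46 CPM in NC against 17.5 ± 4.28 CPM in Si-HOXA3 (SD, n = 3 per group), with an adjusted p of 0.829. These mRNAs were measured, whereas the RNA subunits RPPH1 and RMRP were not.

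RNA polymerase III, which transcribes all members, was represented by 13 subunits and 20 factors. Of the subunits, POLR3G, which is high in pluripotent cells, had the lowest log2 fold change, at -0.46 (SE 0.18), with an unadjusted p of 0.0272 and an adjusted p of 0.729. It was at 11.7 ± 0.641 CPM in NC against 8.49 ± 1.72 CPM in Si-HOXA3 (SD, n = 3 per group), and the groups did not overlap. The highest subunit per length was POLR3C, at 29.4 ± 0.942 against 30.0 ± 0.692 CPM (SD, n = 3 per group). Of the factors, whose log2 fold changes lay between -0.25 and 0.29, the highest per length was MAF1, a repressor of the polymerase, at 62.8 ± 12.6 CPM in NC against 75.1 ± 10.2 CPM in Si-HOXA3 (SD, n = 3 per group), with an adjusted p of 0.828.

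**Figure D5:**
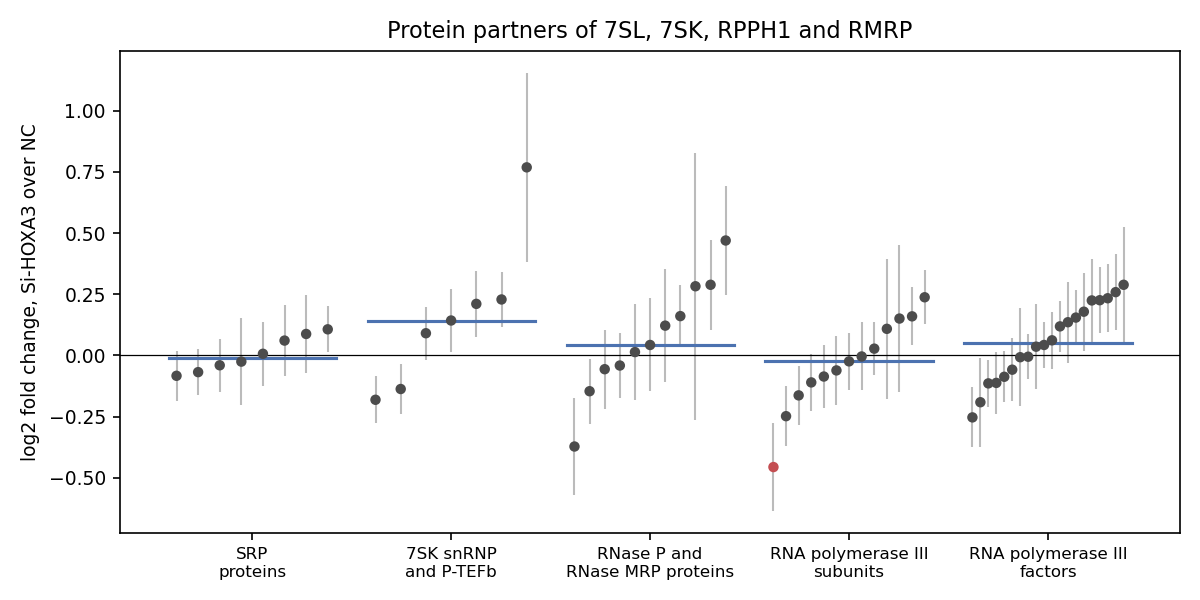
Each point is the log2 fold change of Si-HOXA3 over NC (vertical axis) of a protein-coding gene, with its SE as a bar, in the 5 lists of partner proteins (horizontal axis). The blue line is the median of each list and the red point is POLR3G, at -0.46, the single partner protein with an unadjusted p under 0.05.

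Genes with a pattern like that of RN7SL2 were sought among 10133 genes with a mean of at least 10 CPM. PSMD3, a subunit of the proteasome, had a Pearson correlation of 0.998 with RN7SL2 on the log2 CPM scale over the 6 libraries, at 129, 103 and 103 CPM in NC and 143, 133 and 129 CPM in Si-HOXA3. CDK5RAP1, a mitochondrial tRNA-modifying enzyme, had a correlation of 0.982. In all, 94 of the genes (0.928%) exceeded 0.9, and with 6 points that share library and depth these values are descriptions. The members at 0 have no pattern to compare.

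Total counts were between 14117150 and 15282307. HOXA3, the siRNA target, was counted 248, 240 and 236 times in NC against 159, 199 and 220 times in Si-HOXA3, with a log2 fold change of -0.27 (SE 0.16), an adjusted p of 0.828 and overlapping groups. Of 8 markers of the third pouch, 5 had too few counts to be tested, and the list summed to 49.8 to 57.4 CPM in NC and 50.5 to 61.0 CPM in Si-HOXA3. Of 5 endoderm and epithelial markers, FOXA1, FOXA2 and SOX17 were near 0, with 34, 4 and 4 counts over all libraries. The list summed to 914 to 933 and 926 to 957 CPM, almost wholly from the epithelial genes EPCAM and CDH1. All 7 amnion and trophoblast markers were tested and summed to 2948 to 3202 and 3056 to 3304 CPM. Mesenchyme markers summed to 2353 to 2543 and 2571 to 2852 CPM, mostly from COL1A1 and COL1A2. TWIST1 had 346 counts over all libraries and PRRX1 had none. Pluripotency markers summed to 98.9 to 115 and 105 to 126 CPM, mostly from DPPA4. NANOG and TDGF1 were near 0, with 7 and 3 counts over all libraries. Neural markers summed to at most 0.661 CPM. The part of other cell types in the values of RN7SL2 was not tested.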

How the data were processed

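The libraries sequenced were 3 of NC and 3 of Si-HOXA3. The authors prepared single-read libraries from total RNA by the LM-Seq protocol and analysed them with DESeq2, and the labels also name a SMARTER mRNA kit. The authors deposited raw counts of reads per gene, as whole numbers without normalization. The aligner, the counting program, the annotation, the use of strand and the treatment of reads matching several genes are not given in the sources used here. The submitters' processing notes name the mouse builds GRCm38 and mm10, although all 58735 identifiers were human and found in GENCODE release 29 on GRCh38, which supplied symbols, positions and sequences.

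Groups were taken from the labels. The groups were compared with edgeR 4.0.16 under R 4.3.3 (default filter of filterByExpr, TMM, robust quasi-likelihood test, two-sided, Benjamini-Hochberg adjustment over 16561 genes), and the test was checked on simulated counts. The SE of a log2 fold change was derived from the test, as its absolute value over the square root of the F statistic. CPM was computed from the deposited counts, and per kb from the merged exon length. Exon overlaps were computed over all genes and copies were aligned with edlib 1.3.9.post1. DESeq2 1.42.0, limma 3.58.1 and other settings served as alternatives. Total counts per library were 14117150 to 15282307.

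Marker lists are given by their sums. The members and lists were chosen with earlier results of these data known. The genes named were the members, RN7SL3, HOXA3, every gene of the protein and noncoding RNA lists with an unadjusted p under 0.05, the highest gene of each of those lists (per kb for proteins) and the 2 genes most correlated with RN7SL2. Overlapping and sharing genes, classes and the markers that were low or that led a sum were named after their values were seen. Libraries were compared pairwise by chi-square, and none agreed within sampling noise. Single values of some pouch genes and some sequences are not reported here.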

Additional observations from a re-analysis of the deposited data

How the results depend on the processing

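RN7SL2 was higher in Si-HOXA3 under every alternative that gave a value for it, and its log2 fold change of 1.72 ranged from 1.19 (without Si-HOXA3 replicate 1) to 3.03 (without NC replicate 1) when a library was left out, with 1.18 to 3.04 for the log2 ratio of summed CPM. With all 7SL copies and pseudogenes summed, and likewise those of 7SK, the median log2 fold change of the 2 sums was 0.31 and the log2 ratio was 0.45, since the pseudogenes made up most of the sum. With RN7SL1, RN7SL2 and RN7SL3 summed the log2 ratio was 1.74, and with the genes sharing a 50-base stretch added it was 1.48, both chosen after seeing the data. The ratio of summed CPM was not recomputed for the other filters, the block or limma-voom. The count of genes past an adjusted p of 0.05, 1 as reported, was 38 with DESeq2, 100 without a filter and 47 with limma-voom and quality weights, and 1 to 24 with a library left out, with 24 without Si-HOXA3 replicate 2. At an unadjusted p under 0.05 there were 1053 genes as reported, 1862 without a filter, 2206 with limma-voom and 643 (without NC replicate 2) to 1828 (without Si-HOXA3 replicate 2) with a library left out. No gene of the protein and noncoding RNA lists passed an adjusted p of 0.05 under any alternative run, and 2 of them (POLR3G and MALAT1) had an unadjusted p under 0.05, compared with 5 under upper-quartile normalization, 6 without a filter, 8 with limma-voom and 1 (without NC replicate 2 or Si-HOXA3 replicate 1) to 9 (without Si-HOXA3 replicate 3) with a library left out. The adjusted p of RN7SL2 was 0.0499 with limma-voom, just under the cut-off, and 0.0134 with the replicate block in edgeR's quasi-likelihood test. It was not under 0.05 in any other alternative run. Nothing is read from these values, because the symbols were chosen with the counts known. The causes of these shifts were not tested.

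Samples with the same replicate number did not deviate together throughout, with correlations of 0.173, 0.118 and -0.0772 for numbers 1, 2 and 3, so the numbers are not taken to pair the libraries. With the replicate block, 4 genes passed an adjusted p of 0.05 (BOLA2B, GTF2IP1, MT2A and RN7SL2), 4 genes of the protein and noncoding RNA lists had an unadjusted p under 0.05 and the log2 fold change of RN7SL2 was 1.97. Depth limits RN7SL3, which had 1 to 16 counts per library. The rows of RN7SL1, RN7SK, RMRP and RPPH1 were at 0, so no alternative gave a level for them.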
